A study of Homo sapiens with 6 samples.

Results

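The 46 genes described here build ribosomes. They encode subunits and factors of RNA polymerase I, the small nucleolar ribonucleoproteins (snoRNPs) that modify ribosomal RNA, and assembly factors of the small and large ribosomal subunits. They were chosen by name, and all 46 were found among the 16626 gene symbols of the deposited table. The RNA was taken from KGN, an established human line that grew out of a granulosa cell tumour of the ovary. There were 3 libraries labelled OE-NC, whose genotype is given as wild type, and 3 labelled OE-SOX3, whose genotype is given as SOX3 overexpression. The vector, the promoter, the time after its introduction, the number of clones and whether the libraries came from separate cultures are not stated in the labels, so each p-value reflects spread among these libraries alone, and that spread may be technical.

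Ribosome production starts in the nucleolus, where RNA polymerase I transcribes a long precursor of ribosomal RNA. Box C/D snoRNPs methylate that precursor, H/ACA snoRNPs convert some of its uridines to pseudouridine, and the small subunit processome and the large subunit assembly factors fold, cleave and load it with ribosomal proteins. Growing cells spend much of their transcription on this pathway, and many of its genes are textbook targets of the transcription factor MYC.

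Expression was given as FPKM (reads per kilobase of gene length and per 1000000 reads of the library), from 18039929 to 20335307 reads per library. SOX3 stood at 0.0756, 0.142 and 0.0254 FPKM in the OE-NC libraries and at 14.3, 13.7 and 14.4 FPKM in the OE-SOX3 libraries, so the labels and the targeted gene went the same way. Of the granulosa markers, STAR, NR5A1, FOXL2 and AMH were above 1 FPKM in all 6 libraries, AMHR2 was below 1 FPKM in all of them, and CYP19A1, which encodes aromatase, was between 0.21 and 1.03 FPKM. FSHR was not analysed here. The summed level of the 8 granulosa markers was 57.2 to 59.6 FPKM in OE-NC and 144 to 151 FPKM in OE-SOX3, and STAR carried most of that rise. Of 6 tested granulosa markers, 4 were called higher. STAR went from 33.6 ± 0.214 to 118 ± 3.37 FPKM (SD, n = 3 per group). FOXL2 went from 3.23 to 4.85 FPKM, GATA4 from 0.349 to 1.09 FPKM and INHA from 0.215 to 1.38 FPKM. NR5A1 (15.7 and 15.4 FPKM) and AMH (4.65 and 5.38 FPKM) did not pass. Of the immune markers, PTPRC, CD3E, CD14 and LYZ were below 1 FPKM in every library, and the sum of that list, mostly CD68, was 79.7 to 85.1 FPKM in OE-NC and 57.2 to 59.0 FPKM in OE-SOX3. CD68 (78.1 to 56.0 FPKM) and CSF1R (4.68 to 1.42 FPKM) were called lower. Of 7 epithelial markers, 4 were below 1 FPKM throughout. The sum of all 7, mostly KRT14, was 28.8 to 37.4 FPKM in OE-NC and 41.3 to 43.8 FPKM in OE-SOX3. The 3 tested, KRT14 (27.2 to 35.0 FPKM), KRT5 (2.65 to 4.98 FPKM) and MUC1 (1.29 to 2.15 FPKM), were called higher. Of 5 endothelial markers, CDH5 and VWF were below 1 FPKM throughout. The sum of all 5 was 6.67 to 7.90 FPKM in OE-NC and 7.07 to 7.54 FPKM in OE-SOX3. PECAM1 (3.54 to 2.48 FPKM) was called lower, TEK (1.66 to 2.27 FPKM) was called higher and KDR (1.89 to 2.41 FPKM) did not pass. The part of these markers in the results was not tested.

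Of the 46 genes, 43 fell in OE-SOX3, 0 rose and 3 did not pass (limma, Benjamini-Hochberg adjusted p under 0.05 over all 11131 tested genes, all 46 among them). At an unadjusted p under 0.05 also 0 were higher, and 0 by limma-voom on the recovered reads. Among all tested genes 36.1% were called lower and 32.9% higher, 69.1% in all. The median log2 fold change of the 46 genes was -0.95 on the log2(FPKM + 1) scale, beside -0.03 for all tested genes. For 44 of them every OE-SOX3 library lay below every OE-NC library, a pattern found in 39.5% of tested genes, while groups were apart in either direction for 76.0%. A called fall with a mean at least 2-fold lower was seen in 26 of the 46 (56.5%), and in 9.58% of tested genes. The genes were listed with earlier results of these data known, so these shares are a description. In bulk RNA, fewer cells of a type and less RNA per cell cannot be told apart, and FPKM gives a gene's share of a library, not an amount per cell.

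Together the 46 genes held 4759, 3869 and 3818 reads per 1000000 in OE-NC and 2100, 2026 and 2005 reads per 1000000 in OE-SOX3. As a share of summed FPKM they held 0.540%, 0.471% and 0.468% in OE-NC, and 0.285%, 0.279% and 0.275% in OE-SOX3. The highest and lowest members kept similar places: the rank correlation of mean FPKM between the groups was 0.89 over the 46 genes. NPM1, NOP10, NCL and FBL were the most abundant per length in OE-NC, and PPAN, UTP15 and POLR1B the least.

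**Figure D1:**
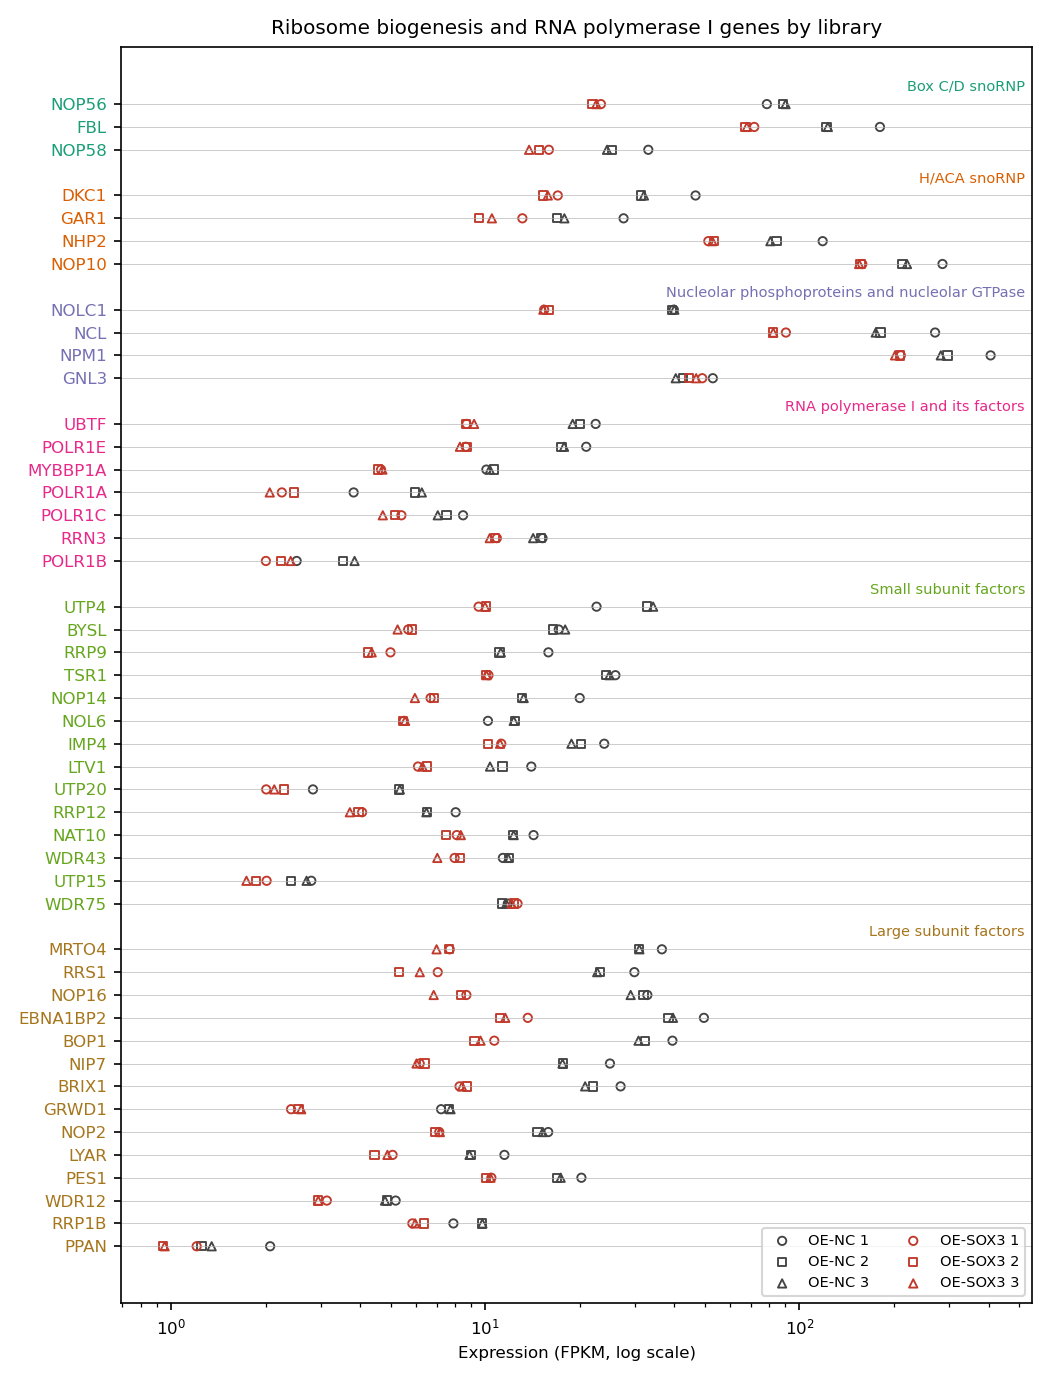
FPKM of each of the 46 genes on a log axis, with 1 symbol per library (grey, OE-NC; red, OE-SOX3) and gene names coloured by role. The red symbols lie left of every grey symbol for 44 genes, overlap them for GNL3 and lie right of them for WDR75.

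MYC itself stood at 19.2, 28.3 and 27.8 FPKM in OE-NC and 23.1, 24.8 and 24.1 FPKM in OE-SOX3 and did not pass (log2 fold change -0.04, limma adjusted p = 0.801). Without OE-NC 1 it was called lower (log2 fold change -0.22, limma adjusted p = 0.0013), and with every library scaled to the same sum its value was 0.10 (adjusted p = 0.65). MXI1 rose from 1.80 ± 0.198 to 9.90 ± 0.272 FPKM (limma adjusted p = 2.17e-06). MXD4 rose from 8.01 ± 0.779 to 19.0 ± 0.455 FPKM (limma adjusted p = 1.97e-05, SD, n = 3 per group). Both encode MAX partners that oppose MYC and are named after their values were seen. MAX itself was also called higher (18.8 to 23.4 FPKM, limma adjusted p = 0.0201), as was MXD1 (0.840 to 1.73 FPKM, limma adjusted p = 0.000152). MYCL (0.00699 to 0.216 FPKM) and MYCN were below 1 FPKM in every library and were not tested. The part of these genes in the falls was not tested.

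Because these genes moved together, the 250 bases before each annotated start of a gene were searched, on both strands, for CACGTG, the E-box bound by MYC and MAX, and for the SOX motifs AACAAAG and AACAATG. RefSeq start sites (GRCh38.p14) were found for 39 of the 46 genes; BOP1, NOLC1, NOP58, POLR1E, RRP12, RRP1B and RRS1 had no entry. The E-box was present for 7 of the 39 (17.9%), beside 11.2% of 9119 tested genes with an entry and 6.34% of all 35116 windows. A gene counted if any of its windows matched, so shares of genes and shares of single windows are unlike measures. The median log2 fold change was -0.88 for the 7 genes with it and -0.98 for those without. AACAAAG was found for 0 of the 39 (4.25% of tested genes, 4.50% of all windows) and AACAATG for 1, WDR12 (2.19% of tested genes, 2.87% of all windows). A match is a run of letters and not a measured site. The 7 windows with an E-box are shown because their genes, EBNA1BP2 and UTP4 among them, cover the range of falls from log2 -1.72 to -0.59. By the GENCODE 29 gene spans, the windows of EBNA1BP2, UTP4, LYAR and IMP4 lie inside the gene, before an inner annotated start. That of NAT10 overlaps the gene's outer start, and those of UTP20 and NOP10 lie before it. Each is given as 30 bases from 5′ to 3′ on the gene's strand with the E-box in capitals, and 6 of the 7 overlap exons that GENCODE 29 annotates for any gene.
EBNA1BP2 (chr1:43172790-43172819, minus strand): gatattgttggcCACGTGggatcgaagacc
UTP4 (chr16:69132619-69132648, plus strand): tgagagcgcgcgcgCACGTGgggccggggc
LYAR (chr4:4290068-4290097, minus strand): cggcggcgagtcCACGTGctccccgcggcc
IMP4 (chr2:130342682-130342711, plus strand): gcggtcctaagtCACGTGtgacattctgta
UTP20 (chr12:101280075-101280104, plus strand): gcgccgttcttttttccgtcCACGTGaccc
NAT10 (chr11:34105599-34105628, plus strand): tttaatgcgcttgcgCACGTGctgtctacc
NOP10 (chr15:34343289-34343318, minus strand): gtagggacactcCACGTGttttagcctgca

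RNA polymerase I and its factors fell, all 7 of 7, with a median log2 fold change of -0.94. POLR1A, the largest catalytic subunit, stood at 3.81, 5.96 and 6.28 FPKM in OE-NC and 2.25, 2.46 and 2.06 FPKM in OE-SOX3. The groups did not overlap, although OE-NC 1 was well below the other OE-NC libraries (log2 fold change -0.94, SE 0.16, limma adjusted p = 0.00137). POLR1B, the second catalytic subunit, stood at 2.51, 3.52 and 3.84 FPKM in OE-NC and 2.00, 2.24 and 2.40 FPKM in OE-SOX3. Here too OE-NC 1 was the lowest control and nearly met the OE-SOX3 range (log2 fold change -0.40, SE 0.12, limma adjusted p = 0.0225). This call was lost when OE-NC 2 (limma adjusted p = 0.0652), OE-NC 3 (0.0623), OE-SOX3 1 (0.0787) or OE-SOX3 2 (0.0609) was left out, and with every library scaled to the same sum (0.117).

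POLR1C, a subunit that RNA polymerases I and III share, stood at 8.50, 7.53 and 7.06 FPKM in OE-NC and 5.41, 5.17 and 4.72 FPKM in OE-SOX3 (log2 fold change -0.51, SE 0.08, limma adjusted p = 0.00126). POLR1E, a polymerase I-specific subunit, was at 21.0, 17.5 and 17.8 FPKM in OE-NC and 8.67, 8.76 and 8.30 FPKM in OE-SOX3. Both genes were lower in every OE-SOX3 library, and POLR1E by more (log2 fold change -1.04, SE 0.08, limma adjusted p = 3.63e-05). The difference between those changes was not tested.

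UBTF, which bends ribosomal DNA at its promoter and recruits the polymerase, was at 22.5, 20.03 and 19.0 FPKM in OE-NC and 8.71, 8.69 and 9.21 FPKM in OE-SOX3 (log2 fold change -1.12, SE 0.08, limma adjusted p = 2.01e-05). RRN3, the factor that brings the polymerase to that promoter, was at 15.2, 15.0 and 14.2 FPKM in OE-NC and 10.9, 10.8 and 10.3 FPKM in OE-SOX3 (log2 fold change -0.44, SE 0.06, limma adjusted p = 0.000496). RRN3 has 2 annotated pseudogenes that could share its reads, so its level is uncertain. The same limit holds for NOP56 and NIP7 (3 each), NCL, NHP2 and PES1 (2 each) and BRIX1, LYAR and LTV1 (1 each). MYBBP1A, a nucleolar protein that binds the transcription factor MYB, was at 10.1, 10.7 and 10.3 FPKM in OE-NC and 4.66, 4.56 and 4.70 FPKM in OE-SOX3. Its 3 values within each group lay close together, and the groups were far apart (log2 fold change -1.01, SE 0.06, limma adjusted p = 8.86e-06).

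The core proteins of box C/D snoRNPs fell, 3 of 3. NOP56 had the smallest adjusted p of the 46 genes in the fit of all libraries as deposited. Its gene is on the plus strand of chromosome 20 (GRCh38, 2652145 to 2658393). It stood at 78.7, 88.6 and 90.3 FPKM in OE-NC and 23.3, 21.95 and 22.6 FPKM in OE-SOX3 (log2 fold change -1.88, SE 0.07, limma adjusted p = 2.53e-06). Its paralogue and partner NOP58 was at 27.6 ± 4.73 FPKM in OE-NC and 14.9 ± 1.07 FPKM in OE-SOX3, and FBL, the methyltransferase fibrillarin, at 142 ± 33.4 and 69.0 ± 2.42 FPKM (SD, n = 3 per group). The ratio of NOP56 to NOP58 was 2.38, 3.49 and 3.70 in OE-NC and 1.46, 1.48 and 1.64 in OE-SOX3. It was lower in all 3 OE-SOX3 libraries (exact two-sided permutation test, p = 0.1, the smallest that 3 against 3 libraries can give). This ratio, with a further 2 below, was chosen after the values were seen, and p adjusted over the 3 ratios was 0.1 for each.

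The H/ACA snoRNP proteins fell, 4 of 4, with log2 fold changes from -1.12 to -0.59. DKC1, the pseudouridine synthase dyskerin, was at 36.6 ± 8.71 FPKM in OE-NC and 16.03 ± 0.885 FPKM in OE-SOX3 (SD, n = 3 per group; chromosome X, 154762742 to 154777689). Its partners NHP2 (94.6 ± 20.8 to 52.5 ± 1.09 FPKM), GAR1 (20.8 ± 5.90 to 11.1 ± 1.86 FPKM) and NOP10 (239 ± 40.2 to 157 ± 1.83 FPKM) fell as well. All 4 were highest in OE-NC 1. NHP2 shares 27.4% of its exon bases with a gene on the opposite strand, and whether reads were counted by strand is not stated, so the reads of that pair cannot be told apart.

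Of the abundant nucleolar phosphoproteins and the nucleolar GTPase, 3 of 4 fell. NOLC1, a chaperone of snoRNPs, was at 39.8, 39.3 and 39.97 FPKM in OE-NC and 15.4, 15.9 and 15.3 FPKM in OE-SOX3 (chromosome 10, 102152176 to 102163871, plus strand, GRCh38). The libraries of each group differed by less than 1 FPKM (log2 fold change -1.30, SE 0.05, limma adjusted p = 3.1e-06). NCL, nucleolin, was at 270, 181 and 175 FPKM in OE-NC and 90.5, 82.2 and 82.5 FPKM in OE-SOX3 (log2 fold change -1.26, SE 0.16, limma adjusted p = 0.000408). NPM1, nucleophosmin, was at 406, 296 and 282 FPKM in OE-NC and 210, 209 and 201 FPKM in OE-SOX3, and its 45 annotated pseudogenes make its level uncertain (log2 fold change -0.64, SE 0.14, limma adjusted p = 0.00449).

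GNL3, the nucleolar GTPase nucleostemin, was the least changed of the 46 genes in the fit of all 6 libraries, though not without OE-NC 1 or with the length trend removed, where WDR75 was nearer 0 (0.10 and 0.09). It stood at 53.0, 42.6 and 40.4 FPKM in OE-NC and 49.0, 44.4 and 46.9 FPKM in OE-SOX3, with overlapping groups (log2 fold change 0.05, 95% interval -0.20 to 0.31, limma adjusted p = 0.672). Without OE-NC 1 it was called higher (log2 fold change 0.17, limma adjusted p = 0.009), as it was with the length trend removed (0.25, adjusted p = 0.015) and under quantile normalization (0.30, adjusted p = 0.0121). Without OE-NC 3 the sign turned (-0.02, adjusted p = 0.868).

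Of 14 small subunit factors, 13 fell and 1 did not pass; their median log2 fold change was -0.85. BYSL, an essential factor for late small subunit maturation, was at 17.1, 16.4 and 18.0 FPKM in OE-NC and 5.68, 5.84 and 5.26 FPKM in OE-SOX3 (log2 fold change -1.46, SE 0.07, limma adjusted p = 4.14e-06). TSR1, a GTPase-like factor of the same late stage, was at 25.9, 24.2 and 24.8 FPKM in OE-NC and 10.2, 10.1 and 10.1 FPKM in OE-SOX3 (log2 fold change -1.22, SE 0.06, limma adjusted p = 4.54e-06). Both genes showed little spread within a group. UTP4, a processome subunit that joins the nascent precursor early, was at 22.6, 32.7 and 34.2 FPKM in OE-NC and 9.52, 10.1 and 9.98 FPKM in OE-SOX3 (log2 fold change -1.48, SE 0.15, limma adjusted p = 0.000112).

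The processome genes RRP9 (12.7 ± 2.73 to 4.53 ± 0.408 FPKM), NOP14 (15.4 ± 3.93 to 6.51 ± 0.474 FPKM), NOL6 (11.7 ± 1.27 to 5.51 ± 0.0445 FPKM) and IMP4 (21.0 ± 2.64 to 10.9 ± 0.588 FPKM) fell (SD, n = 3 per group). LTV1, needed for export of the small subunit precursor (11.9 ± 1.89 to 6.32 ± 0.217 FPKM), RRP12 (7.02 ± 0.891 to 3.902 ± 0.178 FPKM) and NAT10, the RNA cytidine acetyltransferase (12.9 ± 1.14 to 7.99 ± 0.445 FPKM), were lower by log2 fold changes of -0.81 to -0.63. The scaffold gene UTP20 (4.50 ± 1.45 to 2.14 ± 0.142 FPKM) and the early-acting WDR43 (11.7 ± 0.277 to 7.78 ± 0.670 FPKM) and UTP15 (2.63 ± 0.204 to 1.87 ± 0.139 FPKM) fell too. WDR75, which belongs to the same early subcomplex as UTP4, WDR43 and UTP15, went the other way without passing. It was at 11.8, 11.3 and 11.7 FPKM in OE-NC and 12.7, 12.4 and 12.1 FPKM in OE-SOX3 (log2 fold change 0.09, 95% interval -0.04 to 0.22, limma adjusted p = 0.193). Every OE-SOX3 library lay above every OE-NC library, and it was called higher with every library scaled to the same sum (0.24, adjusted p = 0.0178) and under quantile normalization (0.17, adjusted p = 0.026).

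Of the 14 large subunit factors, 13 fell and 1 did not pass, and their median log2 fold change was -1.31. MRTO4, which holds the place of the ribosomal stalk protein during assembly, had the lowest log2 fold change of the 46 genes with all libraries and the values as deposited; without OE-NC 1 it was -1.92, beside -1.94 for NOP56. It stood at 36.5, 30.8 and 30.9 FPKM in OE-NC and 7.71, 7.66 and 6.997 FPKM in OE-SOX3, with a mean 4.39-fold lower (log2 fold change -1.99, SE 0.08, limma adjusted p = 3.2e-06; chromosome 1, 19251539 to 19260128, plus strand, GRCh38). GRWD1, an assembly factor that carries WD repeats, was at 7.23, 7.66 and 7.75 FPKM in OE-NC and 2.41, 2.54 and 2.60 FPKM in OE-SOX3 (log2 fold change -1.28, SE 0.06, limma adjusted p = 4.5e-06). RRS1, which helps to load the 5S ribonucleoprotein, fell from 25.2 ± 3.99 to 6.19 ± 0.872 FPKM, NOP16 from 31.2 ± 1.97 to 7.98 ± 0.990 FPKM and EBNA1BP2 from 42.5 ± 6.21 to 12.1 ± 1.33 FPKM (each ± SD of 3 libraries).

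The PeBoW complex, formed by BOP1, PES1 and WDR12, acts in processing of the large subunit RNA, and its 3 genes fell by different amounts. BOP1 fell from 34.2 ± 4.62 to 9.86 ± 0.737 FPKM, PES1 from 18.2 ± 1.79 to 10.3 ± 0.216 FPKM and WDR12 from 4.95 ± 0.208 to 3.002 ± 0.112 FPKM (each ± SD of 3 libraries). The ratio of BOP1 to PES1 was 1.95, 1.91 and 1.77 in OE-NC and 1.02, 0.920 and 0.930 in OE-SOX3. The ratio of BOP1 to WDR12 was 7.60, 6.64 and 6.41 in OE-NC and 3.41, 3.15 and 3.28 in OE-SOX3. Both ratios were lower in all 3 OE-SOX3 libraries (exact two-sided permutation test, p = 0.1 for each, the smallest possible).

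Among the remaining large subunit genes, NIP7 (20.1 ± 4.21 to 6.21 ± 0.183 FPKM), BRIX1 (23.2 ± 3.26 to 8.49 ± 0.248 FPKM) and NOP2, an RNA cytosine methyltransferase (15.3 ± 0.593 to 7.08 ± 0.128 FPKM), fell more than 2-fold, as did LYAR (9.81 ± 1.47 to 4.80 ± 0.322 FPKM). RRP1B (9.16 ± 1.08 to 6.07 ± 0.265 FPKM) fell by less (SD, n = 3 per group). PPAN was at 2.07, 1.25 and 1.35 FPKM in OE-NC and 1.21, 0.942 and 0.954 FPKM in OE-SOX3, from 42 to 96 reads per library. The groups did not overlap but the gene did not pass (log2 fold change -0.32, SE 0.12, limma adjusted p = 0.0541), whereas with the replicate number as a block it did (limma adjusted p = 0.00794). It was also called lower with a pseudocount of 0.1 (-0.52, limma adjusted p = 0.0499) and under quantile normalization (-0.55, 0.00961). The same held without OE-NC 1 (-0.18, 0.0458) or OE-NC 2 (-0.40, 0.0313). PPAN shares 59.8% of its exon bases with other genes, among them the readthrough gene PPAN-P2RY11, and NOP2 shares 54.4%, so both levels are uncertain. In all, 7 of the 46 genes shared more than 20% of their exon bases.

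**Figure D2:**
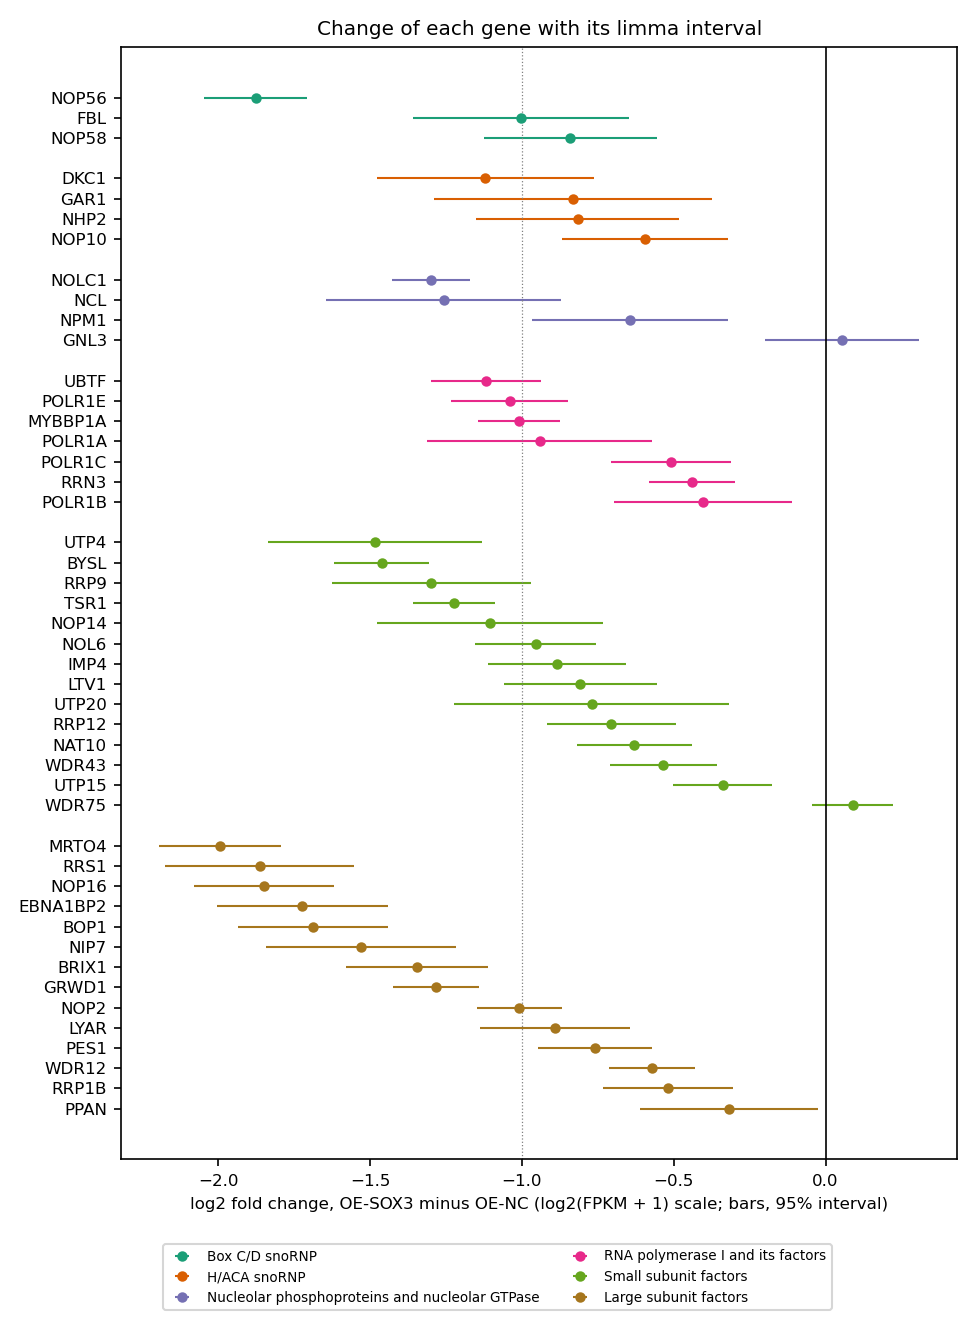
Log2 fold change of each of the 46 genes (OE-SOX3 minus OE-NC, log2(FPKM + 1) scale) with its 95% limma interval, coloured by role. Large subunit factors reach -1.99 (MRTO4), and the intervals of GNL3 and WDR75 include 0.

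Gene length was examined because short genes were lower in OE-SOX3 across the table. The length that fitted each gene's values ranged from 507 bp (NOP10) to 12480 bp (POLR1A) among the 46 genes, with a median of 2455 bp against 3941 bp for all tested genes. Across all tested genes the log2 fold change was higher for longer genes (Spearman correlation 0.24, n = 11131), and across the 46 genes likewise (0.35, n = 46). Without OE-NC 1 these correlations were 0.16 and 0.21. All are descriptions across genes that share the same libraries. In every length class the 46 genes were lower in median than all tested genes of that class. For 1000 to 2000 bp their median log2 fold change was -1.17 (12 genes, 12 lower), beside -0.27 for 1525 tested genes, of which 49.6% were lower. For 4000 to 8000 bp it was -0.86 (10 genes, 9 lower) beside 0.06 for 3862 genes (30.6% lower). The 4 genes over 8000 bp (POLR1A, UTP20, POLR1B and WDR12) had a median of -0.67, all lower, beside 0.19 for 1615 genes (19.8% lower).

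OE-NC 1 stood apart from OE-NC 2 and 3 along the same axis, with correlations of 0.986 to each of them against 0.998 between those. Its difference from them followed length at a Spearman correlation of -0.51 over tested genes and -0.60 over the 46 genes. For 33 of the 46 genes OE-NC 1 was the highest library and the OE-SOX3 libraries the lowest, NCL, FBL, NHP2 and the long gene WDR12 (8068 bp) among them. For the long genes POLR1A, POLR1B and UTP20 it was the lowest OE-NC library. It was also the lowest OE-NC library for some shorter genes, among them NOP56 (1913 bp) and UTP4 (2344 bp). Without OE-NC 1, 44 of the 46 genes were lower and 1 (GNL3) was higher, with a median of -0.93. After a length trend was taken out of every library, 43 were lower and 1 higher, with a median of -0.86, and the correlation with length over the 46 genes was 0.08. With both steps together, chosen after seeing the data, 43 were lower and 2 higher, with a median of -0.81.

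**Figure D3:**
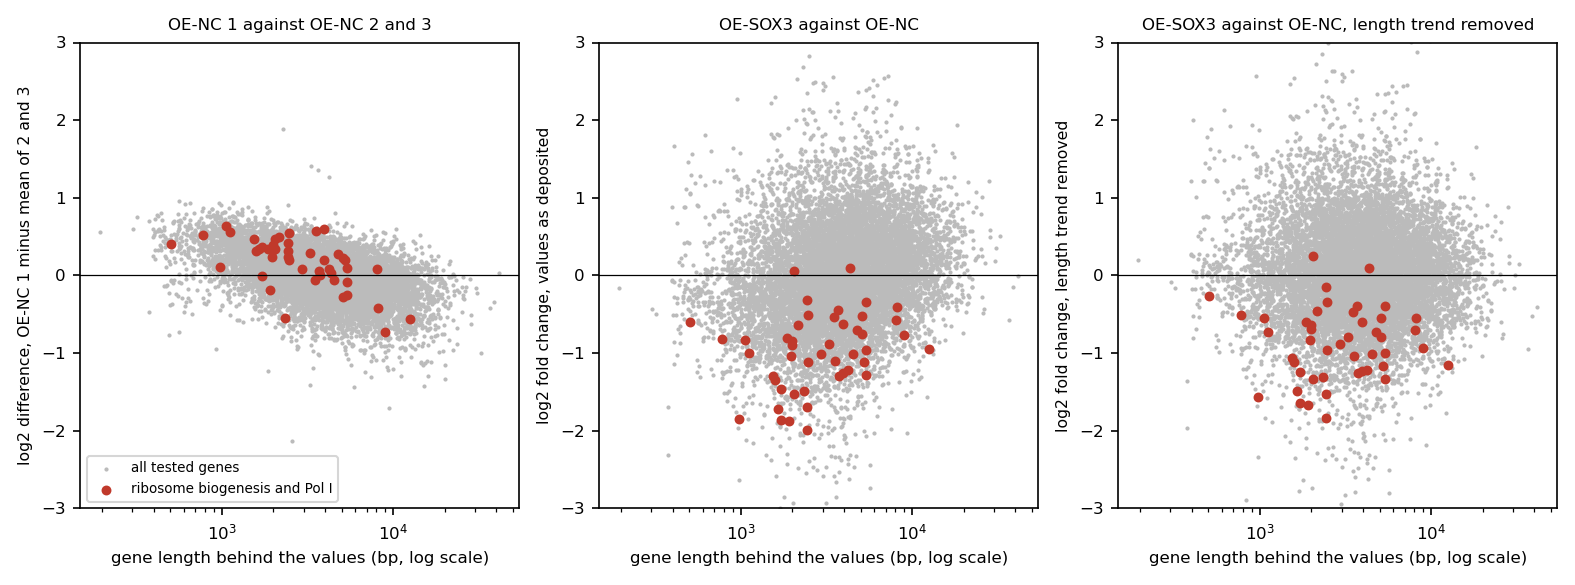
Log2 difference against gene length in bp on a log axis, for all tested genes (grey) and the 46 genes (red): OE-NC 1 minus the mean of OE-NC 2 and 3 (left), OE-SOX3 minus OE-NC (middle), and the same after removal of a length trend (right). The vertical axis stops at 3 in either direction, which leaves out 21 grey genes in the middle and 18 on the right; 44 of the 46 red genes lie below 0 in the middle and right panels.

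The wider pathway was read from lists of genes outside the 46. Over 6 lists with 137 tested genes, 101 were lower (73.7%, beside 36.1% of all tested genes), 11 higher and 25 short of the threshold. The median log2 fold change was -0.58. Other large subunit factors fell in 37 of 44 cases and rose in 3 (median -0.70), with CCDC86 (22.1 to 6.60 FPKM), the SUMO protease gene SENP3 (38.5 to 17.2 FPKM), the recycling GTPase gene LSG1 (12.4 to 5.59 FPKM) and HEATR3, which helps import of ribosomal protein uL18 (6.24 to 2.35 FPKM), lower. The 3 that rose were NMD3, the export adaptor of the large subunit (13.2 to 23.1 FPKM), NOP53 (49.6 to 81.9 FPKM) and URB1 (12.3 to 24.9 FPKM). URB1, with a fitted length of 10818 bp, stood at 6.78, 15.1 and 15.0 FPKM in OE-NC, so OE-NC 1 lowered that mean. Its OE-SOX3 values were 22.3, 25.3 and 27.0 FPKM. Other small subunit factors fell in 31 of 41 cases and rose in 3 (median -0.56). RRP36 (74.2 to 28.2 FPKM), RRP7A (12.1 to 4.02 FPKM), UTP14A (11.3 to 5.48 FPKM) and PDCD11 (11.2 to 6.39 FPKM) fell, and NOB1, the nuclease that makes the final cut of small subunit RNA (25.1 to 30.7 FPKM), UTP23 (2.45 to 3.04 FPKM) and RIOK2 (3.43 to 4.07 FPKM) rose. None of these 3 rises held under every setting. NOB1 did not pass without any 1 OE-SOX3 library (limma adjusted p from 0.0578 to 0.0632), and UTP23 without OE-NC 3 or any 1 OE-SOX3 library (0.0575 to 0.118), under quantile normalization (0.194) or with no filter on low values (0.0597). RIOK2 no longer passed under quantile normalization (0.107), in the fit blocked on replicate number (limma adjusted p = 0.0518) and without OE-NC 2, OE-NC 3, OE-SOX3 1 or OE-SOX3 2 (0.0509 to 0.114).

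Other RNA polymerase I genes went both ways, with 10 of 18 lower (55.6%, beside 36.1% of all tested genes), 3 higher and a median of -0.20. With the length trend removed 6 were lower and 4 higher, and with every library scaled to the same sum 7 were lower and 3 higher. POLR1G, a subunit of the polymerase, fell from 5.02 to 0.973 FPKM, TCOF1, the nucleolar protein treacle, from 15.8 to 7.67 FPKM, TAF1B, a promoter selectivity factor subunit, from 9.69 to 5.21 FPKM and POLR1F from 9.52 to 6.38 FPKM. TAF1D, another subunit of that selectivity factor, rose from 13.5 to 43.2 FPKM, BAZ2A, a subunit of the complex that silences ribosomal DNA, from 14.02 to 27.5 FPKM, and POLR1D, shared with polymerase III, from 16.2 to 19.5 FPKM. The rise of POLR1D was lost without any 1 library other than OE-NC 1 (limma adjusted p from 0.0637 to 0.0822) and with a trend on annotated length removed (0.451). RNase MRP and RNase P, of which the former cuts the ribosomal RNA precursor, had 8 of 9 genes lower and 0 higher by limma, also 0 at an unadjusted p under 0.05 (median -0.97), among them POP1 (7.03 to 2.59 FPKM), POP5 (24.8 to 8.60 FPKM), RPP40 (2.20 to 0.933 FPKM) and RPP25 (1.84 to 0.374 FPKM).

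The RNA exosome, which trims ribosomal RNA ends, had 9 of 14 genes lower (64.3%) and 1 higher (median -0.63). Of all tested genes, 36.1% were called lower and 32.9% higher. EXOSC2 (21.8 to 5.31 FPKM), EXOSC9 (31.7 to 16.7 FPKM), EXOSC8 (34.3 to 14.4 FPKM) and EXOSC4 (16.3 to 5.56 FPKM) fell, while the catalytic subunit gene DIS3 rose (4.32 to 8.34 FPKM). Of 11 snoRNP assembly genes, 6 fell (54.5%, beside the same 36.1%) and 1 rose (median -0.25). The AAA ATPase genes RUVBL1 (33.2 to 14.8 FPKM) and RUVBL2 (48.5 to 27.7 FPKM), SNU13 (63.7 to 37.6 FPKM) and SHQ1 (3.42 to 1.57 FPKM) were lower. The gene that rose, NOL3 (10.4 to 17.8 FPKM), is known as an apoptosis repressor and not for snoRNP assembly. RNA polymerase III subunits, which serve 5S ribosomal RNA and tRNA, had 7 of 11 genes lower (63.6%) and 3 higher (median -0.58). These stand beside the same 36.1% lower and 32.9% higher of all tested genes. POLR3K (15.5 to 3.78 FPKM), POLR3B (3.93 to 1.07 FPKM) and POLR3G (4.10 to 1.80 FPKM) fell. POLR3GL, the paralogue of POLR3G (18.2 to 27.8 FPKM), POLR3D (9.85 to 16.9 FPKM) and POLR3E (5.33 to 7.22 FPKM) rose.

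The cytosolic ribosomal proteins, the main cargo of this pathway, had a median nearer 0. Among 83 of them, 35 were lower, 1 was higher and 47 were short of the threshold (median log2 fold change -0.29), and 42.2% were called lower beside 36.1% of all tested genes. In the fit blocked on replicate number 48 were lower. The largest falls were in RPL22L1 (63.3 to 24.5 FPKM), RPL39L (68.8 to 31.2 FPKM) and RPL26L1 (18.5 to 9.76 FPKM), paralogues of standard ribosomal proteins, and in RPS10. RPS10 was listed at only 3.27 FPKM in OE-NC and 0.472 FPKM in OE-SOX3, far below other ribosomal proteins, and its level is uncertain. Among standard ribosomal proteins RPL29 (540 to 442 FPKM), RPS23 (240 to 170 FPKM) and RPS14 (292 to 215 FPKM) fell, and RPS27L, a paralogue of RPS27, rose (16.3 to 18.4 FPKM). It no longer passed in the fit blocked on replicate number (limma adjusted p = 0.0627), with the length trend removed (0.3) and without any 1 library other than OE-NC 1 (0.0936 to 0.116). RPL29 did not pass with the length trend removed (limma adjusted p = 0.917), with annotated length (0.31) or under quantile normalization (0.0894), nor RPS14 without OE-SOX3 2 (0.0676) or OE-SOX3 3 (0.0639). The lengths that fitted the named genes ranged from 729 bp (RPL39L) to 6110 bp (RPS27L), beside a median of 3941 bp for all tested genes. Ribosomal protein genes have many processed copies in the genome, so their values are uncertain. Their median moved with length and with OE-NC 1, and the count called lower also moved when an OE-SOX3 library was left out. With the length trend removed 13 were lower and 8 higher (median -0.06), and without OE-NC 1 there were 62 lower (median -0.16). Without OE-SOX3 1, 2 or 3 there were 12, 11 and 12 lower, but the medians stayed at -0.30, -0.29 and -0.29. Fewer of all tested genes were called lower in those 3 fits too (3526, 3402 and 3423, beside 4021 with all libraries).

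**Figure D4:**
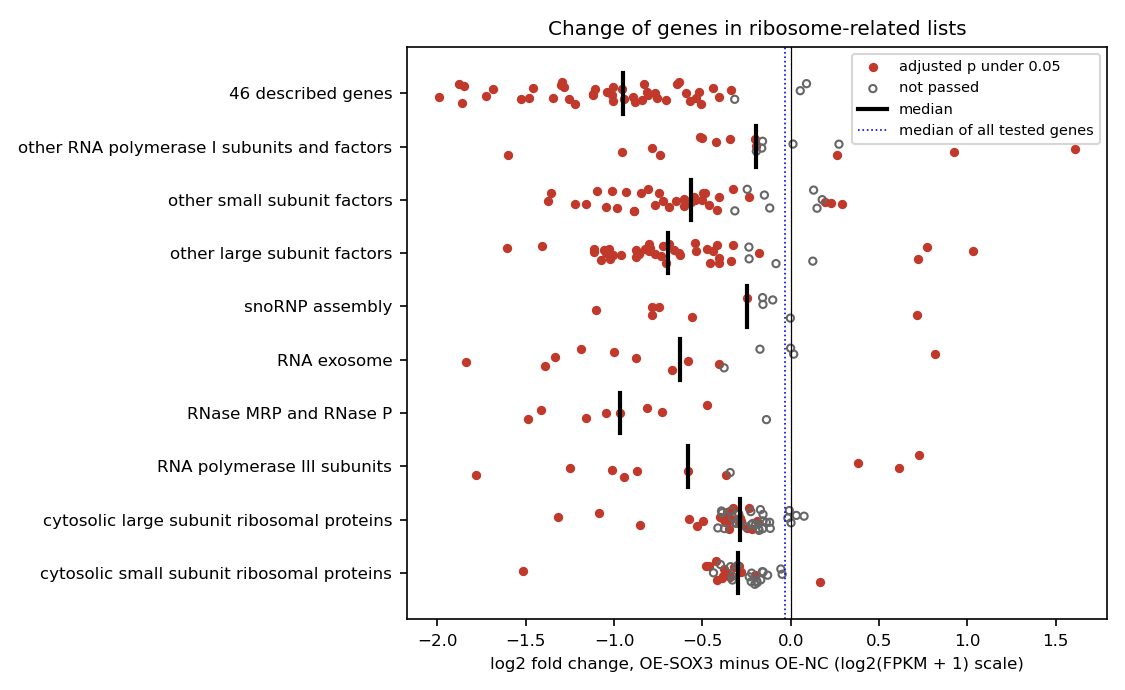
Log2 fold change (OE-SOX3 minus OE-NC, log2(FPKM + 1) scale) of each tested gene in the 46-gene group and in 9 related lists; filled points passed an adjusted p of 0.05, black bars are medians and the dotted line is the median of all tested genes. The 46 genes centre on -0.95, and the ribosomal protein lists on -0.29 and -0.30.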

How the data were processed

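The authors deposited 1 FPKM value per gene and library, made from RNA-seq reads by dividing reads by gene length and library size; the unit is read from the steps between values, since the file header does not name it. Per the submitters' processing notes, HISAT2, HTSeq, RSEM and hg38 were used, with roles and versions not given; per the labels' protocols, total RNA was isolated with TRIzol. Whole reads were recovered for all 16278 genes above 0, with 18039929 to 20335307 reads per library. For each gene the shortest length was taken that put every value within 0.02 reads of a whole number. That tolerance was the rule for accepting a length and not a check of it. In simulated reads 95.9% of genes were recovered exactly, and 99.0% of those with at least 20 reads in every library. Lengths and read counts of single genes are therefore inferred. The 11131 genes whose mean reached 1 FPKM in OE-NC or in OE-SOX3 were tested with limma 3.58.1 in R 4.3.3 on log2(FPKM + 1), which understates changes of low genes, with Benjamini-Hochberg adjustment. Tables were made with Python 3.11.15. Gene positions are from GENCODE 29.

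The members and lists were chosen with earlier results of these data known. Every member is given, with each library's value for the 6 called members of smallest adjusted p, the RNA polymerase I members and GNL3; of the other lists, up to 4 called genes per direction are named. A few genes that this rule names are not reported here. Same-numbered libraries deviated together (r = 0.486, 0.243 and 0.250), which by the rule used takes the numbers as pairs, but OE-NC 3 with OE-SOX3 2 (r = 0.282) and OE-NC 2 with OE-SOX3 3 (r = 0.227) deviated together as much, and the labels state no pairing. Alternatives covered scaling, pseudocount, filter, length, block, limma-voom and each library left out. Transcripts that host snoRNAs were not analysed here.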

Additional observations from a re-analysis of the deposited data

How the results depend on the processing

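Between 42 and 44 of the 46 genes were lower under all 16 alternatives, and 44 with the replicate number as a block. The count called higher, 0, became 1 with every library scaled to the same sum, to the same mean sum (added after seeing the data), with the length trend removed and with a trend on annotated length removed (added), 2 under quantile normalization and 2 with the length trend removed without OE-NC 1 (added), and 0 to 1 with each library left out. Their median moved to -0.83 with the same mean sum and -0.81 with the length trend removed without OE-NC 1. Scaling to the same sum moved the median of all tested genes from -0.03 to 0.10 and the share of called genes that were higher from 47.7% to 57.5%. With each library left out, GNL3 ranged from -0.022 (without OE-NC 3) to 0.17 (without OE-NC 1). In the other biogenesis lists, the 11 higher became 17 with the length trend removed, 19 with that and without OE-NC 1, and 7 to 16 with each library left out. The 101 lower there became 91 with the same sum, 96 with the length trend removed and 91 to 104 with each library left out. The 35 lower ribosomal proteins became 21 with the same sum or the same mean sum, 20 under quantile normalization, 13 with the length trend removed, 17 with annotated length, 22 with the trend removed without OE-NC 1, and 11 to 62 with each library left out. The 1 higher became 2 with the same sum or the same mean sum, 3 under quantile normalization, 8 with the length trend removed, 19 with that and without OE-NC 1, 0 with the replicate block, and 0 to 3 with each library left out. The causes were not tested. Among the members and the genes named from the other lists, the block changed no call but those of PPAN, RIOK2 and RPS27L. Of the 46 genes PPAN had the fewest reads, 42 to 96 per library; RPS10 (7 to 67) and RPP25 (13 to 96) reached lower counts.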
